A study of Homo sapiens with 12 samples.

Results

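The expression of 10 collagen genes was followed by RNA-seq in 2 Ewing sarcoma lines: COL4A1, COL4A2 and COL4A5 of type IV collagen, COL6A1, COL6A2 and COL6A3 of type VI collagen, and COL7A1, COL12A1, COL15A1 and COL18A1. They were taken by symbol from a gene count table of 58721 genes, and all 10 were found. All 10 passed the filter on low counts when it was applied to the libraries of both lines together. The lines were EW8 and TC71, grown in DMEM with fetal bovine serum. Both carried 2 lentiviral constructs: the Tet3G transactivator behind the EF1 alpha promoter, and a TRE3G promoter that drives c-Jun and c-Fos from a single transcript, joined by a self-cleaving peptide. Each line received doxycycline at 2000 ng/ml or its solvent DMSO (vehicle) for 72 h, which gave 4 groups of 3 libraries. The infected cells were drug-selected as populations, and the vehicle groups carried the same constructs. No doxycycline-treated cells without the transgenes were analysed here, so the effect of the drug and that of c-Jun and c-Fos cannot be told apart. Nothing in the labels says that the 3 libraries of a group came from separate cultures, so p-values measure the spread between these libraries, which may be technical.

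Collagens are trimers whose chains wind around each other in the endoplasmic reticulum before secretion. Type IV collagen forms the sheet-like network of basement membranes, and COL4A1 and COL4A2 encode the chains of its most widespread trimer, while the COL4A5 chain joins those of COL4A3 and COL4A4 or that of COL4A6. Type VI collagen forms beaded microfilaments next to basement membranes and around cells, and its usual monomer contains a chain each from COL6A1, COL6A2 and COL6A3. COL7A1 encodes the anchoring fibril of skin, COL12A1 a collagen that sits on fibril surfaces, and COL15A1 and COL18A1 the multiplexins, basement membrane collagens whose C-terminal fragments are known as restin and endostatin.

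Several of these genes lie next to each other, and the DNA between or before 3 of the pairs is shown because their values are set side by side later. COL4A1 and COL4A2 lie head to head on chromosome 13 with 126 bases between their RefSeq transcription starts. The gene models used for counting overlap there, with COL4A1 reaching to position 110307233 and COL4A2 beginning at 110305812. The stretch between the RefSeq starts is chr13:110307158-110307283 of GRCh38.p14 on the plus strand, read towards COL4A2, with the CCAAT box in capitals.
COL4A1 and COL4A2: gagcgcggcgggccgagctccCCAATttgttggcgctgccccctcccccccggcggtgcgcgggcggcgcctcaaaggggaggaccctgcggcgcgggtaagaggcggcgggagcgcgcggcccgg
COL4A5 lies head to head with COL4A6 on the X chromosome, with 379 bases between the nearest RefSeq starts. The 250 bases before the COL4A5 start, chrX:108439588-108439837 on the plus strand, hold the motif in both orientations (CCAAT and ATTGG).
COL4A5: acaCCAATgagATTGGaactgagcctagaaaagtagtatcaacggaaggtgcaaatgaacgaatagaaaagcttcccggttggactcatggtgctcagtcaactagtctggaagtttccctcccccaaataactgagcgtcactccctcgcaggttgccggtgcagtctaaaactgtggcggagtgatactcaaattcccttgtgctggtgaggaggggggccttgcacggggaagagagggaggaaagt
COL6A1 and COL6A2 follow each other on the plus strand of chromosome 21, with 93046 bases from the end of COL6A1 to the start of COL6A2. The 250 bases before the COL6A2 start, chr21:46097862-46098111, hold a TATAAA box, in capitals, that begins 32 bases before the start.
COL6A2: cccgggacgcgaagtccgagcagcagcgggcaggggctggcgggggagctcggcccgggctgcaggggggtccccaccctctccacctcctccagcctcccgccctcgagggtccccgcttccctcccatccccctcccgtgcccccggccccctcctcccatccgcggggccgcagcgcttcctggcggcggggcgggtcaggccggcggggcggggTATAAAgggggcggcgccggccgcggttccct

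The RefSeq promoter table held 9 of the 10 genes, without COL6A1, and each entry was searched on both strands over the 250 bases before the start. The letters TGANTCA, which AP-1 dimers of c-Jun and c-Fos bind, were in none of the 9, against 6.57% of 35116 promoters of the same length. The related TGACGTCA (1.65% of promoters) and GGAAGGAA, a short run of the GGAA repeat that EWS-FLI1 binds (3.06%), were in none either. CCAAT was in the entries of COL4A1, COL4A2 and COL4A5 (32.01% of all promoters). TATAAA was in those of COL6A2, COL7A1 and 1 of the 2 starts of COL18A1 (10.72% of all). TGANTCA and TGACGTCA cannot match the same letters, a match is a description and not a site, and sequence outside these windows was not searched. Several windows also overlap annotated exons, so they are not purely upstream sequence. The overlap covers all 250 bases for COL15A1, 214 for COL12A1, 150 each for COL4A1 and COL4A2, and 93 for COL6A3.

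Total counts ran from 42860665 to 60853649 per library. JUN rose from 21.6 ± 2.61 to 474 ± 44.8 CPM (counts scaled to library size, mean ± SD, n = 3) in EW8 and from 20.7 ± 4.01 to 756 ± 54.6 in TC71, and FOS from 36.8 ± 0.814 to 1078 ± 72.0 and from 11.7 ± 0.426 to 1580 ± 120.0. No library went against its label. The summed level of 12 genes that mark Ewing sarcoma lines was 2480 to 3180 CPM in all 12 libraries. TC71 vehicle replicate 1 stood apart: its chi-square per gene against the other 2 libraries of its group was 59.2 and 57.2, where all other pairs gave 5.28 to 10.5. Without it the 7 genes called higher in TC71 were still called, with log2 fold changes of 2.63 for COL6A1, 3.91 for COL6A2, 4.53 for COL6A3, 4.18 for COL7A1 and 1.89 for COL12A1, to be set beside the values below. The 10 genes held 0.047% to 0.055% of counts in EW8 vehicle, 0.067% to 0.075% in EW8 with doxycycline, 0.004% to 0.005% in TC71 vehicle and 0.039% to 0.044% in TC71 with doxycycline.

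To determine which chains changed when c-Jun and c-Fos were induced, doxycycline was compared with vehicle in each line by edgeR's quasi-likelihood test over 21013 genes. A gene was called when its Benjamini-Hochberg adjusted p was under 0.05 and its absolute log2 fold change over 1. In EW8, 3 of the 10 genes were called higher (COL6A3, COL7A1 and COL15A1), where 11.4% of all genes tested were, and 0 were called lower, where 3.38% were. At the adjusted p alone, 6 were higher, where 21.9% of all genes were, and 0 were lower, where 22% were. In TC71, 7 of the 10 were called higher (COL4A1, COL4A2, COL6A1, COL6A2, COL6A3, COL7A1 and COL12A1), where 12.3% of all genes were, and 0 were called lower, where 3.67% were. Of these 7, COL4A1 stayed at or under 6 counts in every TC71 library and is given no fold. It passed the filter on low counts through its counts in EW8. With the TC71 libraries alone, 9 of the 10 genes passed that filter, without COL4A1, and 6 were called. In each line 0 of the 10 were lower at an unadjusted p under 0.05 in edgeR, and 0 were called lower by DESeq2. The median log2 fold change of the 10 was 0.79 in EW8 and 3.11 in TC71, against -0.03 and 0.00 over all genes tested; without the genes that were at 6 counts or fewer throughout a group, it was 0.78 over 9 genes and 2.61 over 8.

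**Figure D1:**
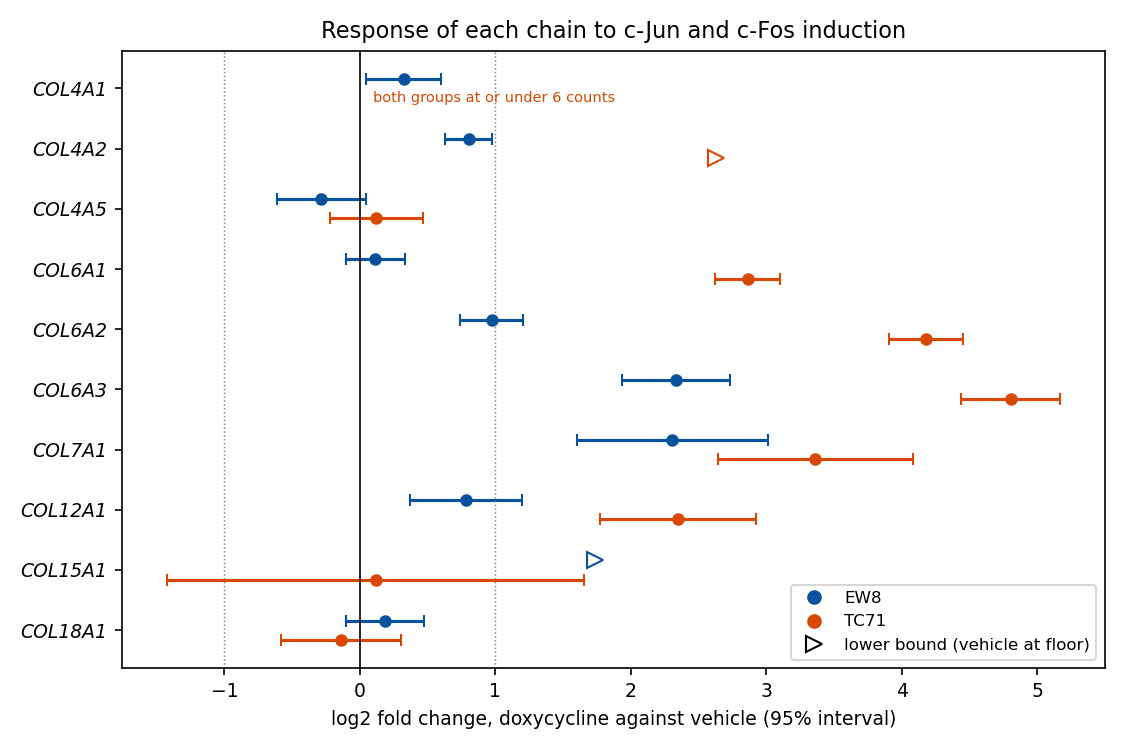
Log2 fold change of each gene with doxycycline against vehicle in EW8 (blue) and TC71 (orange), with 95% intervals of the fit; dotted lines mark the fold limit of 1 and open triangles are lower bounds where the vehicle libraries had 6 counts or fewer. COL6A1 sits at 0.11 in EW8 and 2.86 in TC71, while COL4A5 and COL18A1 lie near 0 in both lines.

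Other changes ran beside these. The summed level of 5 endothelial markers lay between 7.69 and 8.72 CPM under vehicle and between 45.6 and 51.0 with doxycycline in EW8. In TC71 it lay between 0.0644 and 0.382 and then between 3.90 and 5.19. VWF was at or under 6 counts in all vehicle libraries, as were PECAM1, CDH5 and TEK in those of TC71, and TEK stayed there in TC71 with doxycycline. The 7 epithelial markers summed to between 10.9 and 11.2 CPM under vehicle and between 95.4 and 106 with doxycycline in EW8, and to between 177 and 216 and then between 288 and 308 in TC71. Not all members went with these sums. KRT5 was at or under 6 counts throughout, CDH1 and KRT14 were so in both TC71 groups, and KRT14 was so in EW8 only with doxycycline. The sum of the 10 fibroblast markers lay within 161 to 182 CPM in EW8 and 272 to 322 in TC71, with TCF21 at or under 6 counts in all groups. Members moved in opposite directions under that sum. In TC71, COL1A1 rose from 26.1 ± 5.31 to 92.8 ± 4.74 CPM and COL3A1 fell from 165 ± 7.22 to 135 ± 4.2. The 5 leukocyte markers summed to 64.9 to 80.0 CPM in EW8 and to 0.412 CPM or less in TC71. CD3E was at or under 6 counts in all groups. In EW8, CD68 was so under vehicle and LYZ with doxycycline. The part of these genes in the collagen changes was not tested. These are bulk libraries, so more cells that express a gene and more RNA per cell cannot be told apart.

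All 3 type VI chains were called higher in TC71. COL6A1 (ENSG00000142156.14, chr21:45981737-46005050 of hg38, plus strand) had 17.6, 25.3 and 24.7 CPM in the 3 TC71 vehicle libraries and 160.1, 176.5 and 156 CPM with doxycycline. Each induced library was above each vehicle library, and the rise was 7.27-fold (log2 2.86, SE 0.11, adjusted p = 2.83e-13). In EW8 the same gene was already at 197, 243 and 217 CPM under vehicle and had 250.1, 242 and 218 CPM with doxycycline. These EW8 groups overlapped, with a log2 difference of 0.11 (95% interval -0.10 to 0.33, adjusted p = 0.416).

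COL6A2 (ENSG00000142173.14, chr21:46098097-46132849, plus strand), the neighbour of COL6A1, moved further in both lines. TC71 had 7.10, 11.3 and 10.98 CPM under vehicle and 170.5, 189 and 174 CPM with doxycycline, an 18.1-fold rise without overlap (log2 4.18, SE 0.13, adjusted p = 7.84e-15). EW8 went from 121, 146 and 138 CPM to 276.5, 273.5 and 244 CPM, again without overlap. That rise of 0.97 (SE 0.11, adjusted p = 8.12e-07) fell just under the fold limit of 1, so COL6A2 was not called in EW8, and its log2 fold change ran from 0.90 to 1.07 over 20 alternative settings.

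COL6A3 (ENSG00000163359.15, chr2:237324003-237414375, minus strand) encodes the longest of these 3 chains and was the lowest of them per kb of exon in every group. It had 1.15, 0.719 and 1.17 CPM in EW8 vehicle and 5.32, 4.66 and 5.41 CPM with doxycycline. In TC71 it had 1.34, 2.08 and 2.29 CPM under vehicle and 50.8, 53.7 and 55.2 CPM with doxycycline. No groups overlapped within a line. The rise was 5.03-fold in EW8 (log2 2.33, SE 0.19, adjusted p = 1.04e-08) and 27.9-fold in TC71 (log2 4.80, SE 0.17, adjusted p = 7.35e-14).

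Because the type VI monomer needs all 3 chains, the ratio of their counts per kb of exon was taken within each library, which does not depend on how libraries are scaled. COL6A1 exceeded COL6A2 under vehicle, with ratios of 1.63, 1.68 and 1.59 in EW8 and 2.50, 2.25 and 2.27 in TC71. With doxycycline the ratios were 0.912, 0.892 and 0.900 in EW8 and 0.947, 0.943 and 0.901 in TC71. All 6 induced libraries were therefore below 1 and all 6 vehicle libraries above 1. The side of 1 depends on the annotated exon lengths, which cancel out in the change between groups. Over both lines the log2 ratio fell by 1.09 (exact permutation test within lines, two-sided, 400 arrangements, p = 0.005, the smallest this design allows; 0.0125 after Benjamini-Hochberg adjustment over 5 ratios).

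The ratio of COL6A3 to COL6A1 moved the other way. Its geometric mean went from 0.00123 to 0.00590 in EW8 and from 0.0227 to 0.0883 in TC71, a log2 change of 2.26 and 1.96, and again no groups overlapped. Over both lines the change was 2.11 (exact permutation test, two-sided, p = 0.005, adjusted 0.0125). COL6A3 RNA per kb stayed below that of COL6A1 in every library: the highest ratio was 0.0964, in TC71 doxycycline replicate 3. Single lines of 3 against 3 libraries cannot reach a p below 0.1 in this test.

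**Figure D2:**
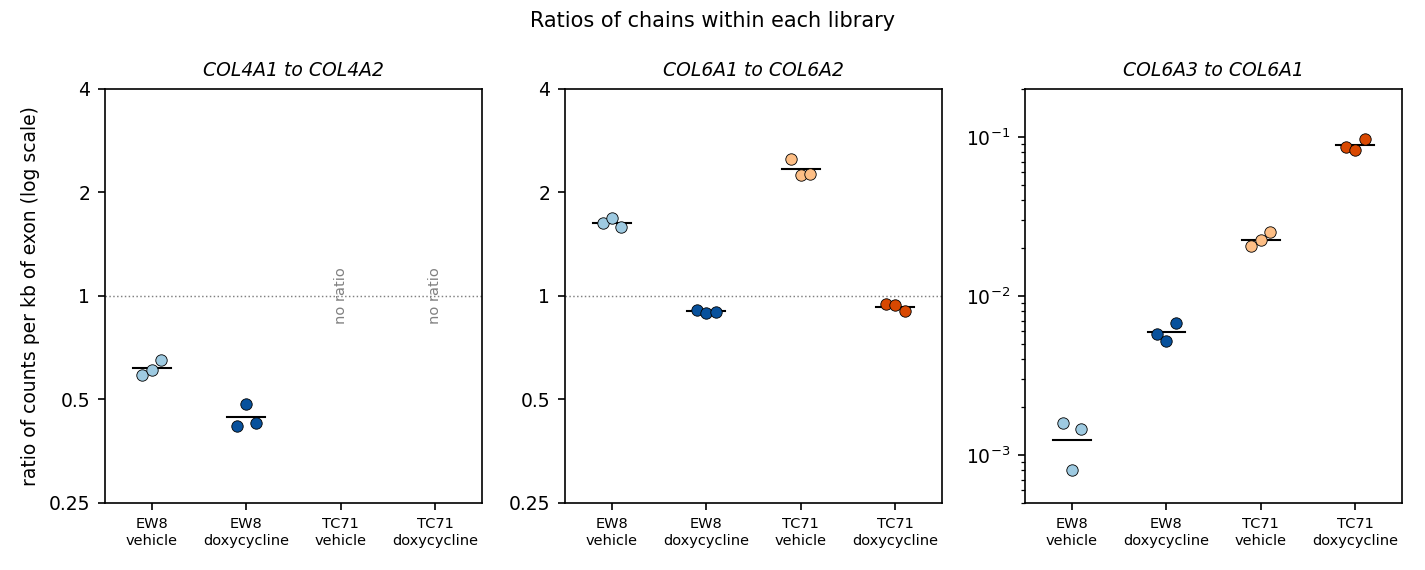
Ratio of the counts per kb of exon of 2 chains in each library on log axes, with the geometric mean of each group as a bar; the third panel has its own axis. COL6A1 to COL6A2 is above 1 in all vehicle libraries and between 0.892 and 0.947 in all induced ones, and COL4A1 to COL4A2 has no ratio for TC71 groups in which a gene had 0 counts.

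Of the partner chains outside the 10 genes, COL6A6, which can take the place of the COL6A3 chain, went the other way in EW8. It had 50, 88 and 107 counts in the EW8 vehicle libraries and 12, 8 and 12 with doxycycline, a fall of 2.93 on the log2 scale (SE 0.66, adjusted p = 0.00161). It was at 4 counts or fewer in all TC71 libraries, and COL6A5, a related chain, was at 0 in all 6 of them. In EW8, COL6A5 had 0.616 ± 0.185 CPM under vehicle and 0.351 ± 0.108 with doxycycline (log2 -0.80, adjusted p = 0.351).

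The head-to-head pair COL4A1 and COL4A2 was expressed in EW8 and was at 0 counts in uninduced TC71. COL4A1 (ENSG00000187498.15, chr13:110148963-110307233, minus strand) had 27.1, 30.7 and 32.0 CPM in EW8 vehicle and 38.6, 40.7 and 33.2 with doxycycline. The groups did not overlap, yet the log2 difference of 0.33 (SE 0.13, 95% interval 0.05 to 0.60) had an adjusted p of 0.0547, and over 19 alternative settings that p ran from 0.000607 to 0.206. In TC71 COL4A1 had 0 counts in all 3 vehicle libraries and 4, 0 and 2 counts with doxycycline, so both groups lay under the floor of 6 counts, or 3 read pairs. The fitted test called it there (adjusted p = 0.0203), but leaving out TC71 vehicle replicate 2 or TC71 doxycycline replicate 1 ended the call (adjusted p = 0.0508 and 0.111), in a range of 0.00509 to 0.111 over the alternatives.

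COL4A2 (ENSG00000134871.18, chr13:110305812-110513209, plus strand) had 60.1, 65.9 and 64.4 CPM in EW8 vehicle and 120.4, 109.8 and 102 CPM with doxycycline. That rise of 0.80 (SE 0.08, adjusted p = 6.27e-07) passed the test without reaching the fold limit. TC71 had 0 counts of COL4A2 in all vehicle libraries and 24, 26 and 36 counts with doxycycline, at least 6.17-fold above the floor (adjusted p = 1.29e-08). The induced TC71 level of 0.674 ± 0.127 CPM was still 163-fold below that of induced EW8 (log2 -7.35, SE 0.13, adjusted p = 1.13e-16). In EW8 the ratio of COL4A1 to COL4A2 per kb went from 0.590, 0.610 and 0.651 under vehicle to 0.419, 0.485 and 0.427, without overlap (log2 -0.48, exact permutation test, two-sided, p = 0.1, the smallest it allows; adjusted 0.125).

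COL4A5 (ENSG00000188153.13, chrX:108439844-108697545, plus strand), the chain altered in X-linked Alport syndrome, did not pass the test in either line. It had 7.26, 7.02 and 7.65 CPM in EW8 vehicle and 5.84, 6.25 and 5.94 with doxycycline (log2 -0.28, 95% interval -0.61 to 0.05, adjusted p = 0.159). These groups did not overlap, with the induced libraries lower. Its ratio to COL4A1 per kb in EW8 was 0.333, 0.284 and 0.297 under vehicle and 0.188, 0.191 and 0.222 with doxycycline (log2 -0.61, exact permutation test, two-sided, p = 0.1, the smallest it allows; adjusted 0.125). TC71 had 4.07, 3.83 and 3.34 CPM under vehicle and 3.49, 4.83 and 3.91 with doxycycline, which overlapped (log2 0.12, 95% interval -0.22 to 0.46, adjusted p = 0.589).

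COL4A6, whose start faces that of COL4A5, rose in both lines. It had 2, 0 and 0 counts in EW8 vehicle and 230, 188 and 163 with doxycycline, at least 30.9-fold above the floor (adjusted p = 9.53e-10). In TC71 it had 16, 20 and 12 counts and then 162, 193 and 114 counts, a log2 rise of 3.68 (SE 0.35, adjusted p = 7.56e-08). Per kb of exon, COL4A6 reached 0.415 ± 0.0248 CPM in induced EW8 and 0.400 ± 0.111 in induced TC71, where COL4A5 had 0.506 ± 0.0180 and 0.344 ± 0.0576. The other partner pair, COL4A3 and COL4A4, rose in TC71 (log2 2.30, adjusted p = 0.0066, and 1.62, adjusted p = 0.00426) and did not pass the test in EW8 (0.83, adjusted p = 0.330, and -0.32, adjusted p = 0.584). Both rested on few counts. In TC71, COL4A3 had 8, 8 and 3 counts under vehicle, near the floor, and 16, 24 and 33 with doxycycline. COL4A4 had 14, 42 and 22 counts and then 62, 74 and 44.

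**Figure D3:**
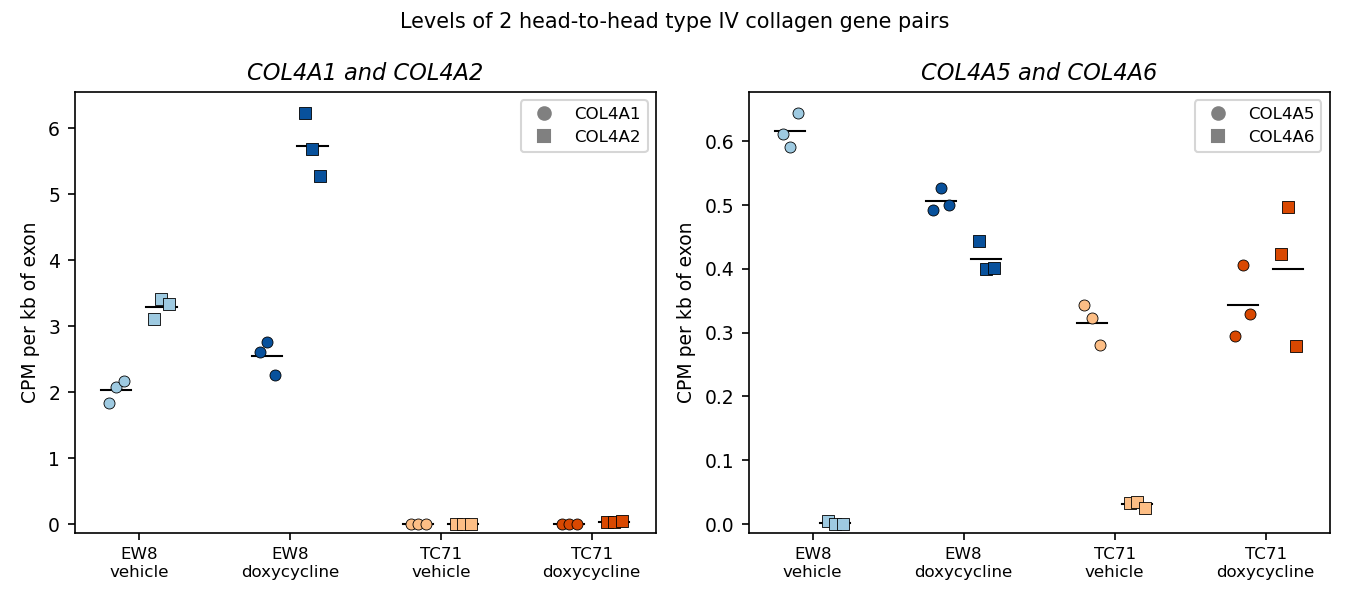
Level per kb of exon (CPM per kb, linear axes from 0) of each library for COL4A1 and COL4A2 (left) and COL4A5 and COL4A6 (right); circles are the first gene of a pair, squares the second, bars the mean of 3 libraries. COL4A6 goes from near 0 under vehicle to 0.279 to 0.497 with doxycycline in both lines, while COL4A5 stays between 0.281 and 0.645.

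COL7A1 (ENSG00000114270.17, chr3:48564073-48595267, minus strand) was called higher in both lines. EW8 had 3.43, 3.36 and 3.41 CPM under vehicle and 17.3, 19.0 and 14.1 with doxycycline, a 4.94-fold rise (log2 2.31, SE 0.33, adjusted p = 1.67e-05). TC71 had 5.42, 1.80 and 1.13 CPM under vehicle and 25.9, 34.0 and 25.5 with doxycycline, a 10.3-fold rise (log2 3.36, SE 0.34, adjusted p = 1.86e-07). No induced library overlapped the vehicle libraries of its line. The highest TC71 vehicle value came from replicate 1, the library that stood apart, and without it the TC71 log2 fold change was 4.18 (adjusted p = 5.75e-16), in a range of 2.96 to 4.18 over the alternatives, all past the test.

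COL12A1 (ENSG00000111799.20, chr6:75084326-75206051, minus strand) had 11.9, 10.0 and 11.2 CPM in EW8 vehicle and 17.8, 19.4 and 19.7 with doxycycline. It rose by 0.78 on the log2 scale (SE 0.20, adjusted p = 0.00321), under the fold limit. In TC71 it went from 0.191, 0.741 and 0.582 CPM to 2.76, 2.15 and 2.96, a 5.09-fold rise (log2 2.35, SE 0.27, adjusted p = 9.91e-07). In neither line did the groups overlap. COL12A1 in TC71 rested on 10 to 46 counts per vehicle library, few beside the 460 to 622 of EW8 vehicle.

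Of the multiplexin genes, COL15A1 was called in EW8 and COL18A1 in neither line. COL15A1 (ENSG00000204291.10, chr9:98943179-99070792, plus strand) had 0 counts in all 3 EW8 vehicle libraries and 20, 24 and 18 with doxycycline, at least 3.33-fold above the floor (adjusted p = 0.000194). In TC71 it had 6, 26 and 6 counts under vehicle and 12, 12 and 6 with doxycycline, which overlapped (log2 0.12, 95% interval -1.42 to 1.66, adjusted p = 0.930). Without TC71 vehicle replicate 2, the library with 26 counts, the value was 1.02 (adjusted p = 0.390, in a range of 0.390 to 1.0 over the alternatives). At this depth a change of COL15A1 in TC71 within that interval was not detectable. The ratio of COL15A1 to COL18A1 per kb was 0.186 under vehicle and 0.257 with doxycycline in TC71 (exact permutation test, two-sided, p = 0.5, adjusted 0.5).

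COL18A1 (ENSG00000182871.14, chr21:45405137-45513720, plus strand) had 24.2, 31.2 and 29.6 CPM in EW8 vehicle and 34.2, 35.2 and 27.2 with doxycycline (log2 0.19, 95% interval -0.10 to 0.47, adjusted p = 0.300). TC71 had 0.936, 1.45 and 1.34 CPM and then 0.945, 1.27 and 1.18 (log2 -0.14, 95% interval -0.58 to 0.30, adjusted p = 0.639). The groups overlapped in both lines. Reads on 1401 of its exon bases (16.4%), which it shares with SLC19A1 on the opposite strand, were left out of the count, and SLC19A1 itself fell by 0.65 in EW8 (adjusted p = 9.73e-06) and by 0.49 in TC71 (adjusted p = 0.000203). The other genes share at most 2.1% of their exon bases with another gene.

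To see where the lines stood before induction, TC71 was compared with EW8 under vehicle. Of the 10 genes, 6 were called lower in TC71, where 18.9% of all genes were, and 1 was called higher, where 11.6% were; at the adjusted p alone 9 differed in either direction, where 61.7% of all genes did. The 2 type IV genes COL4A1 and COL4A2 were at least 274-fold and 581-fold lower (adjusted p = 2.21e-14 and 8.78e-17), being at 0 counts in TC71. COL18A1 was 22.7-fold lower (log2 -4.50, SE 0.17, adjusted p = 1.22e-13), COL12A1 21.4-fold (log2 -4.42, SE 0.26, adjusted p = 4.53e-11), COL6A2 13.7-fold (log2 -3.78, SE 0.13, adjusted p = 2.26e-14) and COL6A1 9.70-fold (log2 -3.28, SE 0.12, adjusted p = 3.77e-14).

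The remaining genes were closer between the uninduced lines. COL4A5 was lower in TC71 by less than the fold limit (log2 -0.96, SE 0.16, adjusted p = 3.54e-05) and COL6A3 higher by less than it (log2 0.90, SE 0.20, adjusted p = 0.000819). For COL6A3 the value was 1.21 without TC71 vehicle replicate 1 and 1.06 without EW8 vehicle replicate 3. Over 19 alternative settings it ran from 0.60 to 1.21, with an adjusted p of up to 0.0557. COL15A1 was the gene called higher, at least 1.74-fold over the floor (adjusted p = 0.000515). That bound rests on the 26 counts of TC71 vehicle replicate 2, without which both groups would be at the floor. COL7A1 overlapped between the lines (log2 -0.30, adjusted p = 0.493), and was 1.09 lower in TC71 without TC71 vehicle replicate 1 (adjusted p = 3.96e-05, in a range of 3.96e-05 to 0.973 over the alternatives).

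With doxycycline, 4 of the 10 genes were called lower in TC71 than in EW8, where 18.4% of all genes were, and 1 was called higher, where 12.6% were; at the adjusted p alone 9 differed in either direction, where 62.5% of all genes did. COL4A1 was at least 265-fold lower, COL18A1 28.4-fold lower (log2 -4.83, SE 0.18, adjusted p = 8.69e-14) and COL12A1 7.22-fold lower (log2 -2.85, SE 0.22, adjusted p = 2.07e-09), beside COL4A2 at 163-fold lower. COL6A1 and COL6A2 now differed by 1.44-fold and 1.49-fold (log2 -0.53 and -0.57, adjusted p = 0.000216 and 0.000158), under the fold limit. COL6A3 was 10.4-fold higher in TC71 (log2 3.38, SE 0.16, adjusted p = 1.98e-12).

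The chains were ordered per kb of exon within each group. The length merges all annotated exons of a gene, so the order between genes depends on the annotation. For COL18A1, the 1401 bases shared with SLC19A1 stay in the length although reads on them were left out, which lowers its level. In EW8 vehicle the order ran from COL6A1 (41.0 ± 4.34 CPM per kb) through COL6A2 (25.1 ± 2.34), COL18A1 (3.32 ± 0.430), COL4A2 (3.29 ± 0.157), COL4A1 (2.03 ± 0.174), COL12A1 (0.884 ± 0.0761), COL4A5 (0.616 ± 0.0270), COL7A1 (0.307 ± 0.00343) and COL6A3 (0.0516 ± 0.0129) to COL15A1 at 0. Of these neighbours, COL18A1 and COL4A2 had overlapping ranges of mean ± 1 SD. In TC71 vehicle COL6A1 was at 4.22 ± 0.797 and COL6A2 at 1.82 ± 0.436, followed by COL4A5 (0.316 ± 0.0314), COL7A1 (0.252 ± 0.209), COL18A1 (0.146 ± 0.0317) and COL6A3 (0.0969 ± 0.0255). Neighbours among these last 4 had overlapping ranges of mean ± 1 SD. The ranges of COL12A1 (0.0404 ± 0.0227) and COL15A1 (0.0326 ± 0.0263) also overlapped, and COL4A1 and COL4A2 were at 0.

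In EW8 with doxycycline COL6A2 (49.1 ± 3.32 CPM per kb) and COL6A1 (44.3 ± 3.14) had overlapping ranges of mean ± 1 SD, as did COL12A1 (1.52 ± 0.0832) and COL7A1 (1.52 ± 0.223), and COL6A3 stood ninth at 0.261 ± 0.0207. In TC71 with doxycycline the order began with COL6A2 (33.0 ± 1.79), COL6A1 (30.7 ± 2.04), COL6A3 (2.71 ± 0.114) and COL7A1 (2.57 ± 0.434), and went on with COL4A5 (0.344 ± 0.0576), COL12A1 (0.210 ± 0.0337), COL18A1 (0.133 ± 0.0195), COL15A1 (0.0358 ± 0.0132), COL4A2 (0.0349 ± 0.00659) and COL4A1 (0.00322 ± 0.00329). There, the ranges of mean ± 1 SD overlapped for COL6A2 and COL6A1, COL6A3 and COL7A1, and COL15A1 and COL4A2. Within each induced library of both lines, however, COL6A2 was above COL6A1.

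**Figure D4:**
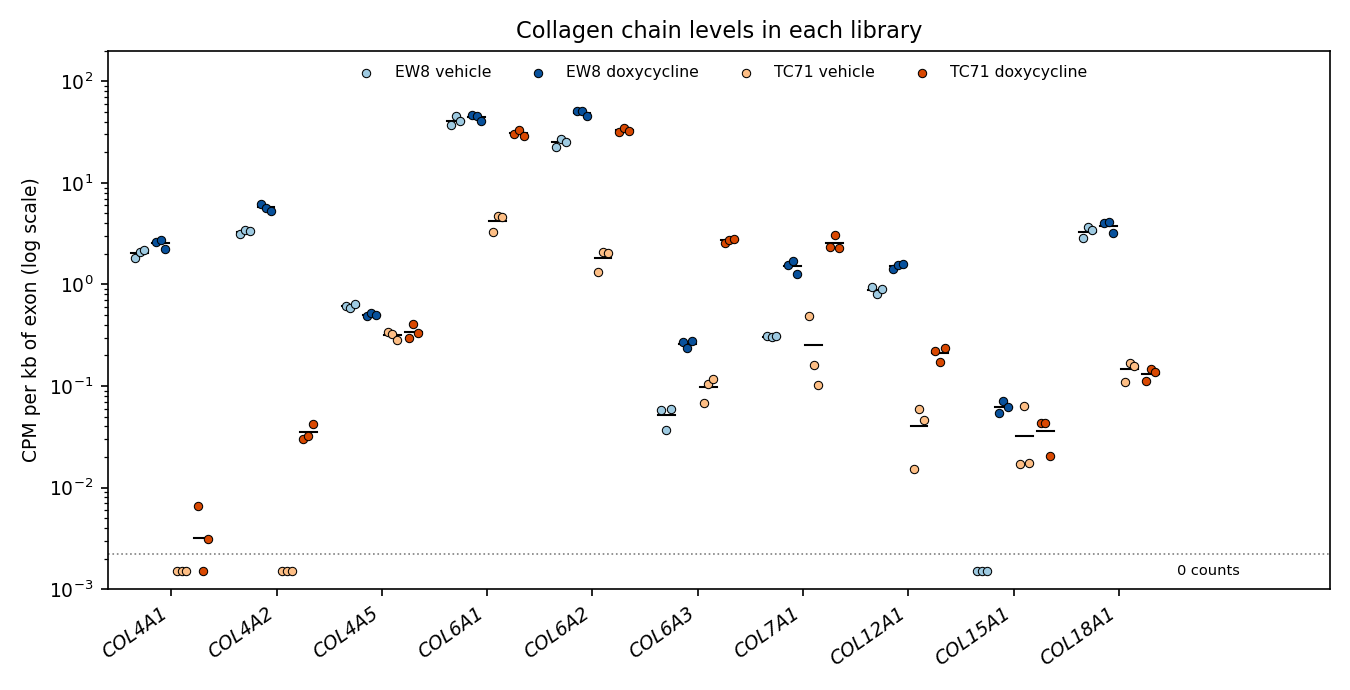
Level of each gene per kb of exon (CPM per kb, log axis) in each of the 12 libraries, with bars at group means; points under the dotted line are libraries with 0 counts. COL4A1, COL4A2, COL4A5, COL6A1, COL12A1 and COL18A1 lie lower in TC71 than in EW8 in all libraries, and COL6A3 lies highest in induced TC71.

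Whether the lines responded to a different degree was tested as the response in TC71 minus the response in EW8. Of the 10 genes, 5 were called for a larger log2 response in TC71, where 4.18% of all genes were, and 1 for a larger response in EW8, where 2.87% were. COL6A2 differed by 3.21 (SE 0.16, adjusted p = 1.29e-10), COL6A1 by 2.75 (SE 0.15, adjusted p = 3.85e-10), COL6A3 by 2.47 (SE 0.26, adjusted p = 1.55e-06) and COL12A1 by 1.57 (SE 0.34, adjusted p = 0.00271). COL4A2 and COL15A1 were called as well (adjusted p = 1.17e-06 and 0.00333, the latter with the larger response in EW8), but a vehicle group at 0 counts leaves the size of their difference undetermined. FOS itself differed by 2.21 (adjusted p = 6.41e-12) and JUN by 0.73 (adjusted p = 0.00217) in the same direction, and the part of this in the collagen differences was not tested.

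The difference for the other 4 genes did not pass. COL7A1 gave 1.06 (95% interval 0.08 to 2.04, adjusted p = 0.130). Without TC71 vehicle replicate 1 it was 1.83 and was called (adjusted p = 1.63e-06, in a range of 1.63e-06 to 0.307 over the alternatives). With no filter on low counts it was also called, at 1.06 (adjusted p = 1.01e-05). COL4A5 gave 0.41 (95% interval -0.07 to 0.88, adjusted p = 0.245) and COL18A1 -0.32 (95% interval -0.85 to 0.20, adjusted p = 0.431). COL4A1 had an adjusted p of 0.0628 with both TC71 groups at the floor, in a range of 0.0205 to 0.228 over the alternatives.

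Genes that work with these collagens were counted in the same fit. Their lists were written from general knowledge, but with earlier results of these data known, so the counts are a description. The counts stand beside the 11.4% and 3.38% of all genes called higher and lower in EW8 and the 12.3% and 3.67% in TC71. Of 14 collagen receptors, 5 were called higher and 0 lower in EW8, and 9 higher and 0 lower in TC71, with a median log2 fold change of 0.86 and 2.56 (0.61 over the 13 without a group at the floor in EW8). Where a list here has 0 genes called lower by edgeR, DESeq2 also called 0, and at most 1 gene was lower at an unadjusted p under 0.05. ITGA2, the alpha chain of an integrin that binds collagen, rose from 4.18 ± 0.835 to 231 ± 4.81 CPM in EW8 (log2 5.77, adjusted p = 3.97e-18) and from 10.2 ± 0.659 to 474 ± 17.9 in TC71 (log2 5.53, adjusted p = 3.5e-18). Its partner ITGB1 rose by 0.61 in EW8 (adjusted p = 4.02e-08), under the fold limit, and by 1.55 in TC71 (adjusted p = 6.78e-14). ANTXR1, a type VI collagen receptor, gave -0.12 (adjusted p = 0.0999) and 0.00 (adjusted p = 0.980). Its relative ANTXR2, named after its values were seen, rose by 4.52 in EW8 (adjusted p = 4.4e-14) and by 4.44 in TC71 (adjusted p = 1.75e-14).

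Of 13 tested proteases that can cut these collagens, from a list of 15, 9 were called higher and 1 lower in EW8, and 11 higher and 0 lower in TC71 (medians 1.85 and 4.07, or 1.38 over 10 and 2.86 over 9 genes with no group at the floor). CTSB, a lysosomal cysteine protease, rose by 1.85 in EW8 (adjusted p = 1.26e-15) and 2.88 in TC71 (adjusted p = 4.71e-18). MMP2, a gelatinase that cuts type IV collagen, rose from 91.0 ± 6.08 to 228 ± 5.06 CPM in EW8 (log2 1.32, adjusted p = 4.57e-11) and from 4.92 ± 0.523 to 83.2 ± 6.82 in TC71 (log2 4.07, adjusted p = 5.99e-17). MMP10, a stromelysin, was at 6 counts or fewer in all vehicle libraries and reached 33.2 ± 1.98 CPM in EW8 and 863 ± 20.4 in TC71, at least 266-fold and 7900-fold above the floor.

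Of 23 basement membrane partners, 7 were called higher and 2 lower in EW8, and 8 higher and 3 lower in TC71, with medians of -0.01 and 0.67. LAMC1, the laminin gamma chain of most basement membranes, rose by 1.32 in EW8 (adjusted p = 3.75e-12) and 1.67 in TC71 (adjusted p = 1.06e-13). PXDN, the peroxidasin that crosslinks type IV collagen, fell by 0.52 in EW8 (adjusted p = 8.41e-07) and rose by 0.80 in TC71 (adjusted p = 2.36e-09). SPARC, a collagen-binding matricellular protein, fell by 0.20 (adjusted p = 0.0180) and rose by 0.72 (adjusted p = 4.81e-08) in the same order, both genes staying under the fold limit.

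Of 23 genes for collagen folding and secretion, 2 were called higher and 1 lower in EW8 and 4 higher and 0 lower in TC71, with medians of 0.01 and 0.42, which beside the 11.4%, 3.38%, 12.3% and 3.67% of all genes does not set the list apart. The called genes, named after their values were seen, were P4HA2 and P4HA3, alpha subunits of prolyl 4-hydroxylase, in both lines, PLOD3, a lysyl hydroxylase, and SEC24D, a coat protein of transport vesicles, in TC71, and P3H2, a prolyl 3-hydroxylase, as the gene called lower in EW8. P4HA2 rose 4.70-fold in EW8 (adjusted p = 1.19e-13) and 12.3-fold in TC71 (adjusted p = 1.41e-16), and P4HA3 rose 13.9-fold (adjusted p = 2.28e-10) and 20.9-fold (adjusted p = 1.93e-11). PLOD3 rose 2.39-fold and SEC24D 2.28-fold in TC71 (adjusted p = 1.4e-10 and 8.31e-11), and P3H2 gave a log2 fold change of -1.10 in EW8 (adjusted p = 2.16e-05); without EW8 doxycycline replicate 3, 0 of the list were called lower there. Among the genes highest in mean CPM, P4HB, a subunit of prolyl 4-hydroxylase, rose by 0.29 (adjusted p = 0.0003) and 0.54 (adjusted p = 1.49e-07), under the limit. CRTAP, of the prolyl 3-hydroxylation complex, gave -0.02 (adjusted p = 0.801) in EW8 and rose by 0.26 in TC71 (adjusted p = 0.000807), and COLGALT1, a collagen galactosyltransferase, fell by 0.41 in EW8 (adjusted p = 2.23e-05) and gave -0.01 in TC71 (adjusted p = 0.941).

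Of 23 tested other collagen genes, from a list of 27, 6 were called higher and 2 lower in EW8 and 7 higher and 4 lower in TC71, with medians of -0.28 and 0.16 (-0.29 and -0.02 over the 22 and 17 genes with no group at the floor). COL5A1, a regulator of fibril diameter, gave -0.07 in EW8 (adjusted p = 0.526), where it was already at 136 ± 6.56 CPM, and rose in TC71 from 10.1 ± 1.55 to 92.1 ± 5.52 CPM (log2 3.19, adjusted p = 2.39e-15). COL5A2 fell by 0.19 in EW8 (adjusted p = 0.00972) and rose by 0.27 in TC71 (adjusted p = 0.000408). COL3A1, of fibrillar type III collagen, fell by 0.46 in EW8 (adjusted p = 3.54e-05) and by 0.29 in TC71 (adjusted p = 0.00156).

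For each of the 10 genes, the protein-coding gene with the most similar log2 CPM over the 12 libraries was looked up, as a description in which the points share groups and scaling. Pearson's r was 0.998 for COL4A1 with NTN1, COL4A2 with ABHD15, COL6A1 with ITGB5 and COL18A1 with SLC38A5, 0.997 for COL6A2 with FLNC and 0.996 for COL6A3 with SH3KBP1. It was 0.990 for COL12A1 with TNFRSF1B, 0.985 for COL7A1 with EFR3B, 0.972 for COL4A5 with LSR and 0.962 for COL15A1 with IGF1R. Among the 10 genes themselves, r was 0.99 between COL18A1 and COL4A1, 0.98 between COL6A1 and COL6A2 and 0.97 between COL4A1 and COL4A2. COL6A3 gave 0.25 with COL6A1, 0.41 with COL6A2 and -0.42 with COL4A1, and its highest value was 0.81, with COL7A1.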

How the data were processed

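RNA-seq counts of 12 libraries (4 groups of 3, labels' group and replicate) were used. Per the labels and the methods, polyadenylated RNA was made into stranded libraries and sequenced in pairs, and the authors checked reads with FastQC, aligned them with STAR to hg38 and counted them on GENCODE 29 genes with featureCounts 2.0.1. The deposited values are whole-number counts, not normalized. Per the file headers, the counter was run without options for strand, read pairs, overlaps or multi-mapping: each mate counts, so 67.3% to 69.8% of counts from 20 to 199 were even, and reads on more than 1 gene were left out. The exon length in bases, deposited beside the counts, was used for levels per kb. It merges all annotated exons of a gene, so levels and ratios between genes depend on the annotation.

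Symbols matched 58252 of 58721 gene identifiers (99.2%). In edgeR 4.0.16 (R 4.3.3), filterByExpr kept 21013 genes with 99.95% of counts, libraries were scaled by TMM, and all 12 entered 1 quasi-likelihood fit of 4 groups (common dispersion 0.0143). Benjamini-Hochberg adjustment ran over all genes tested. The study's tool, DESeq2 (here 1.42.0), was an alternative, beside other scalings, filters, fold limits, a replicate block and leaving out each library. The fits were tested on simulated data. A group with at most 6 counts (3 read pairs) in every library was at the floor, folds against it are bounds, and floors cover counting error only, since PCR copies are not independent molecules. Ratios of chains were tested by exact permutation. The 10 genes and all lists were chosen with earlier results of these data known. All 10 genes are named, with the most similar gene of each and, of each list, the 3 genes highest in mean CPM; the remaining partner chains, COL4A3 and COL6A5, were added because they complete the trimers, and SLC19A1 because it overlaps COL18A1. Promoters came from RefSeq (GRCh38.p14).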

Additional observations from a re-analysis of the deposited data

Results flagged for a closer look

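For 6 of the 10 genes the response to doxycycline differed between the lines, by the test of the difference in the joint edgeR fit (response in TC71 minus response in EW8, log2). COL6A1 gave 2.75, from a response of 0.11 in EW8 and 2.86 in TC71. COL6A2 gave 3.21, from 0.97 and 4.18. COL6A3 gave 2.47, from 2.33 and 4.80. COL12A1 gave 1.57, from 0.78 and 2.35. All 4 started from CPM values that differed between the lines under vehicle, lower in TC71 for all but COL6A3. COL4A2 gave a fitted value of 7.26 and COL15A1 of -7.24, and neither is a measured size, since the vehicle libraries of TC71 and of EW8, respectively, were at 0 counts. Without TC71 vehicle replicate 1 the 4 measured differences were 2.48, 2.90, 2.16 and 1.07 in the order given. No explanation of these differences was tested.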

How the results depend on the processing

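No member's direction reversed with a call under any alternative: of 954 values of the 10 genes over the 5 comparisons, 936 kept their side of the threshold, 2 lost it (COL4A1 in TC71) and 16 gained it, 7 of them COL6A2 in EW8. For the genes and lists named beside them, 1252 of 1267 values kept their call or, for the count of a list, stayed at or close to the main count. In 13 the call was lost or the count was smaller, and in 2 the call was gained or the count was larger. With no fold limit the count of genes called was 6 in place of 3 in EW8 and 9 in place of 5 between the induced lines. Requiring at least 10 counts in every library leaves 7 of the 10 genes to test. It gave 3 as before in EW8, 5 in place of 7 in TC71 and 4 in place of 6 for the difference of the responses. Between the lines it gave 4 in place of 7 under vehicle and 3 in place of 5 with doxycycline. Over all genes it gave 1600 in place of 3112 calls in EW8 and 1909 in place of 3355 in TC71. For the difference of the responses, DESeq2 gave 7 of the 10 genes and no filter on low counts gave 8, in place of 6. Leaving out each library in turn gave 3 to 4 genes in EW8, 6 to 7 in TC71, 6 to 7 for the difference of the responses, 7 to 9 between the vehicle groups and 5 between the induced groups. The replicate block gave 3, 7, 6, 7 and 6 in the same order; samples with the same number correlated at -0.03 to 0.01 in their deviations from group means, so the numbers were not taken as pairs, and the added gene was COL7A1 between the induced lines, at 1.30 (adjusted p = 0.0276). Ratios kept their sign with 1 added to each count and without any single library. Depth limits COL4A1, COL4A2 and COL12A1 in TC71 and COL15A1 in both lines, which rest on few counts. Of the partner chains, it also limits COL4A3 and COL4A4 in both lines.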
